A study of Mus musculus with 8 samples.

Results

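Immunoglobulin transcripts were examined through 29 probe sets of a spleen expression array, chosen because every gene symbol assigned to the probe set was an immunoglobulin heavy, kappa or lambda chain gene. They are 29 of 23410 probe sets with a gene symbol and of 35556 in the deposited table. A probe set is a group of short probes read as a single row, and a row that names several immunoglobulin genes was counted once. RNA came from splenocytes, the mixed cells of a collagenase- and DNase-digested spleen, with a single Affymetrix Mouse Gene 1.0 ST array per mouse. The groups were wild-type mice (WT, n = 2), Sle1.3 mice (n = 3) and Sle1.3 mice that were also heterozygous for E2-2 (Sle1.3/E2-2het, n = 3), all on a C57/B6 background. The labels call the Sle1.3 mice lupus mice and do not spell out the loci behind the name. Tcf4 encodes E2-2, a basic helix-loop-helix transcription factor of B cells and plasmacytoid dendritic cells. Both WT mice are labelled male, the Sle1.3 mice female, female and male, and the Sle1.3/E2-2het mice male, male and female. The labels give no age, no treatment, no litter and no account of how the E2-2 allele was made.

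An antibody is built from heavy chains and light chains, and each chain has a variable part that binds antigen and a constant part. In a developing B cell, recombination joins a variable (V), a joining (J) and, in heavy chains, a diversity segment in front of the constant gene. Ighm encodes the constant part of IgM, the first class made, and class switching replaces it with Ighg3 (IgG3), Igha (IgA) or another constant gene. Light chains carry either the kappa constant gene, Igkc, or a lambda constant gene such as Iglc1. Resting B cells display antibody as a receptor on their surface, and plasma cells, their secreting descendants, hold far more immunoglobulin RNA per cell. In splenocyte RNA, fewer cells of a type and less RNA per cell cannot be told apart.

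The 29 rows named 29 distinct genes, all of which matched the RefSeq gene table of the mouse. Heavy chain genes, on chromosome 12, made up 10 rows, kappa genes, on chromosome 6, made up 17, and lambda genes, on chromosome 16, made up 2. By content, 6 rows named only constant genes (Ighm in 3, Igha in 2 and Ighg3 in 1), 10 named constant and variable genes together, and 13 named only variable or joining segments. Ighg1, Ighg2b, Ighg2c, Ighd and Ighe were not analysed here. Of the segments named, Ighv1-33 and Igkv4-77 are listed as pseudogenes. The rows are not 29 independent measurements, because 17 of them were assigned at least 1 cDNA accession that another of the rows also carried, in 18 pairs. The annotation is by cDNA match and does not say on which part of a transcript the probes lie, so a row called constant here is one whose assigned genes are constant genes.

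All 29 rows passed the filter on dim rows, and 25 of them lay in the top 5% of mean log2 intensity among the rows tested. Row means ran from 8.32 to 12.94 in log2 units. The arrays fell into 2 sets that the labels do not mention. The arrays of replicate 3 in the Sle1.3 and the Sle1.3/E2-2het group started at linear intensities of 10.9 and 11.2, the other 6 arrays at 4.57 to 5.11, and the array medians were 6.17 for those 2 and 5.83 to 5.95 for the rest (log2). They are called the second array set below, and the first set holds 2 mice of each genotype. Xist, the X-inactivation transcript, was at 4.11 and 3.75 in WT, 10.77, 10.68 and 11.90 in Sle1.3, and 3.79, 4.29 and 11.82 in Sle1.3/E2-2het (log2). Sle1.3 replicate 3, labelled male, went against its label. By Xist, all Sle1.3 mice were female and both WT mice male, and in the first set the Sle1.3/E2-2het mice were male and the Sle1.3 mice female. For differences between Sle1.3 and WT, genotype and sex cannot be told apart.

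Differences are given in log2 units (1 unit is a doubling), from a limma model of genotype and array set fitted to all 8 arrays and 17557 rows, with p-values adjusted over all of those rows by the Benjamini-Hochberg method and a threshold of 0.05. Because no WT array lies in the second set, the shift between sets was estimated from both Sle1.3 genotypes and enters every difference from WT. The Sle1.3 mice stand in the first 2 comparisons below and the WT mice in the first and the last, so the comparisons share samples and are not independent. P-values measure the spread between these mice.

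Tcf4 was at 9.02 and 8.80 in WT, 8.67, 8.63 and 9.06 in Sle1.3, and 8.18, 8.13 and 9.25 in Sle1.3/E2-2het mice (log2). The first 2 Sle1.3/E2-2het mice were the lowest of all and the mouse of the second set was the highest. Against Sle1.3 the Sle1.3/E2-2het mice differed by -0.27 (limma adjusted p = 0.583), and against WT by -0.64 (adjusted p = 0.0215). The Tcf4 difference from WT did not pass with genotype alone (limma adjusted p = 0.407) or labelled sex (adjusted p = 0.331). In the first array set alone it passed (adjusted p = 0.0056).

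The first comparison sets the lupus-susceptible Sle1.3 mice against WT. In it, 4 of the 29 immunoglobulin rows rose and none fell. They were an Ighm row and the rows of the kappa variable segments Igkv4-91, Igkv8-30 and Igkv5-43, with folds of 2.64, 2.01, 2.09 and 1.64. The 4 rows are 13.8% of the 29. Over all rows tested, 24.4% passed the threshold in either direction, 9.76% higher and 14.7% lower. The heavy chain rows had a median difference of 0.37 and all 10 lay above 0. The kappa rows had a median of 0.15 with 14 of 17 above 0, and both lambda rows lay below 0 (-0.32 and -0.28, neither past the threshold). The median over the 29 rows was 0.25, beside -0.05 over all rows tested.

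Ighm was measured by 3 rows, which did not give a single answer. Row 10403069 was at 10.35 and 9.97 in WT, 12.04, 11.57 and 10.95 in Sle1.3, and 10.29, 10.02 and 10.78 in Sle1.3/E2-2het mice. All 3 Sle1.3 mice lay above both WT mice and above all 3 Sle1.3/E2-2het mice. Its difference from WT was 1.40 (SE 0.32, limma adjusted p = 0.0127). It passed in 16 of 19 alternative settings (limma adjusted p from 0.000741 to 0.118). In these and later tallies, leaving out either second-set array repeats the fit of the first array set alone. The settings counted are therefore not independent. Row 10403069 did not pass without WT replicate 2 (1.21, limma adjusted p = 0.117) or without Sle1.3 replicate 1 (1.05, adjusted p = 0.0591). Nor did it pass with labelled sex in place of the array set (0.87, adjusted p = 0.118). For Sle1.3 replicate 3 that label goes against Xist.

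Row 10402864 of Ighm was at 10.79 and 10.66 in WT, 11.22, 11.12 and 11.40 in Sle1.3, and 10.57, 10.31 and 11.24 in Sle1.3/E2-2het mice. Row 10402991 was at 10.52 and 10.29 in WT, 11.01, 10.86 and 10.73 in Sle1.3, and 10.44, 10.25 and 10.98 in Sle1.3/E2-2het mice. In both rows the Sle1.3 mice again lay above the WT mice without overlap, by smaller distances. The differences from WT were 0.35 (SE 0.17, limma adjusted p = 0.155) and 0.39 (SE 0.20, adjusted p = 0.195), and neither passed the threshold, although row 10402991 did in the first array set alone (0.53, adjusted p = 0.0479).

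Of the switched classes, the row that names Ighg3 alone was at 8.53 and 8.35 in WT, 8.52, 9.02 and 8.29 in Sle1.3, and 9.45, 6.88 and 7.52 in Sle1.3/E2-2het mice. The Sle1.3 values straddled those of WT (0.35, SE 0.58, limma adjusted p = 0.687), and the Sle1.3/E2-2het mice held both the highest and the lowest value. The first Igha row, 10403034, was at 11.88 and 11.27 in WT, 11.75, 11.97 and 12.33 in Sle1.3, and 11.27, 11.38 and 12.64 in Sle1.3/E2-2het mice. The other, 10403063, was at 11.36 and 10.99 in WT, 11.44, 11.63 and 11.99 in Sle1.3, and 10.92, 11.06 and 12.39 in Sle1.3/E2-2het mice. The 2 Igha rows carry the same 7 accessions and kept the same order of mice within every genotype. Their differences between Sle1.3 and WT were 0.15 and 0.21 (SE 0.24 and 0.23), inside their standard errors.

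**Figure D1:**
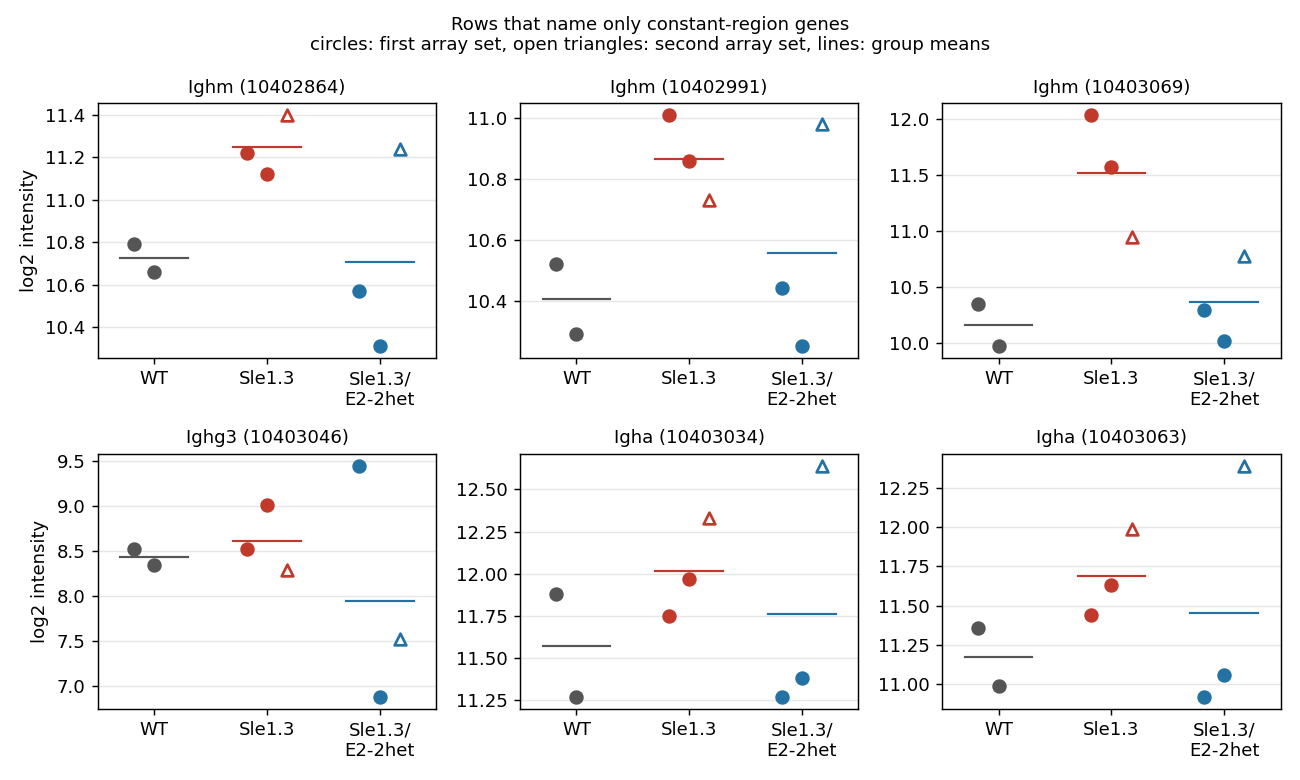
Log2 intensity (vertical axes, each panel on its own scale) of the 6 rows that name only constant genes, with a point per mouse by genotype; filled circles are the first array set, open triangles the second, and lines the group means. In Ighm row 10403069 the Sle1.3 mice, at 10.95 to 12.04, lie above all mice of the other genotypes, and in Ighg3 the Sle1.3/E2-2het mice run from 6.88 to 9.45.

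Among rows that name only variable segments, Igkv4-91 separated the genotypes most tightly. It was at 10.53 and 10.27 in WT, 11.38, 11.38 and 11.59 in Sle1.3, and 10.66, 10.64 and 10.70 in Sle1.3/E2-2het mice. The 3 Sle1.3 mice lay well above the other 5, in both array sets. Its difference between Sle1.3 and WT was 1.01 (SE 0.14, limma adjusted p = 0.00107), and it passed in all 20 alternatives run (adjusted p from 0.000795 to 0.0285).

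Igkv8-30 was at 8.76 and 8.97 in WT, 9.96, 9.73 and 10.66 in Sle1.3, and 9.44, 9.47 and 9.77 in Sle1.3/E2-2het mice. The WT mice were the lowest, and the Sle1.3/E2-2het mice lay between, with the mouse of the second set just above the lowest Sle1.3 mouse. Its difference between Sle1.3 and WT was 1.06 (SE 0.16, limma adjusted p = 0.00213), past the threshold in all 20 alternatives (adjusted p from 0.00168 to 0.0401).

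Igkv5-43 was at 7.65 and 7.91 in WT, 8.41, 8.40 and 10.08 in Sle1.3, and 8.13, 7.43 and 8.91 in Sle1.3/E2-2het mice. The Sle1.3 mouse of the second set was far above the other two. The difference between Sle1.3 and WT was 0.72 (SE 0.22, limma adjusted p = 0.0433), and it passed in 9 of 20 alternatives (adjusted p from 0.0133 to 0.272). It did not pass without either WT mouse or any Sle1.3 mouse, or without Sle1.3/E2-2het replicate 3, with values of 0.58 to 0.85 (adjusted p from 0.0608 to 0.171). Nor did it pass in limma with genotype alone (1.18, adjusted p = 0.186), with labelled sex (1.37, adjusted p = 0.272), in the first array set (0.63, adjusted p = 0.0791), with median centring (0.68, adjusted p = 0.0552) or over all probe sets (0.72, adjusted p = 0.0711).

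The next smallest p among rows with variable segments was that of Igkv6-14 and Igkv6-15, a shared row at 12.60 and 12.44 in WT, 13.13, 12.85 and 13.19 in Sle1.3, and 12.81, 12.39 and 12.92 in Sle1.3/E2-2het mice. Its Sle1.3 values also lay above WT without overlap, but the difference of 0.45 (SE 0.17, limma adjusted p = 0.0745) did not pass. It did with the replicate number as a block (limma adjusted p = 0.0266). That block also ties WT mice to Sle1.3 mice by number, although WT was not taken as paired.

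Of all 29 rows, 18 had every Sle1.3 mouse above every WT mouse and 1 had every Sle1.3 mouse below. Among all rows tested these shares were 23.8% and 23.4%. At p under 0.05 before adjustment, 6 immunoglobulin rows were higher and 0 lower, beside 14.9% higher and 23.4% lower of all rows.

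The brighter kappa rows showed small differences. The 3 kappa rows with the highest mean among those that name a variable gene were 10545198, 10538871 and 10545196, of which the first and last name Igkc, the kappa constant gene, beside several Igkv4 segments. Row 10545198 was at 12.97 and 12.79 in WT, 13.00, 13.06 and 13.14 in Sle1.3, and 12.85, 12.65 and 13.08 in Sle1.3/E2-2het mice. Row 10538871 (Igkv1-133 and Igkv1-135) was at 12.99 and 12.63 in WT, 12.83, 13.08 and 13.16 in Sle1.3, and 12.94, 12.73 and 13.06 in Sle1.3/E2-2het mice. Row 10545196 was at 12.91 and 12.66 in WT, 12.92, 12.97 and 13.09 in Sle1.3, and 12.74, 12.52 and 13.12 in Sle1.3/E2-2het mice. For rows 10545198 and 10545196 the Sle1.3 mice lay just above both WT mice, and for row 10538871 the ranges overlapped. Over the 4 rows that name Igkc, the differences between Sle1.3 and WT were 0.11 to 0.15, with adjusted p from 0.513 to 0.641. No background or saturation level came with the table.

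Both lambda rows name Iglv1, Iglv2 and Iglc1. Row 10438405 was at 12.59 and 12.47 in WT, 12.39, 12.11 and 12.45 in Sle1.3, and 12.36, 12.28 and 12.73 in Sle1.3/E2-2het mice. Row 10438415 was at 11.17 and 10.89 in WT, 10.79, 10.77 and 11.10 in Sle1.3, and 11.02, 10.83 and 11.37 in Sle1.3/E2-2het mice. For row 10438405 the 3 Sle1.3 mice lay below both WT mice, and for row 10438415 they overlapped. The differences between Sle1.3 and WT, -0.32 (SE 0.14) and -0.28 (SE 0.14), had limma adjusted p of 0.133 and 0.185. The lambda rows were the only chain whose rows all lay below 0 here, and the difference between chains was not tested.

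The heavy chain rows that name variable and constant genes together had differences between Sle1.3 and WT of 0.35 to 1.16, none past the threshold in the fit with the array set. Row 10403018 (Ighg3, Igha, Ighv1-33 and Ighv1-26) was at 12.47 and 12.06 in WT, 12.81, 12.57 and 13.26 in Sle1.3, and 12.19, 11.88 and 12.88 in Sle1.3/E2-2het mice. Row 10403015, which names the same 4 genes, was at 12.16 and 11.90 in WT, 12.50, 12.33 and 12.92 in Sle1.3, and 12.04, 11.63 and 12.56 in Sle1.3/E2-2het mice. In both rows every Sle1.3 mouse lay above both WT mice. Row 10403021 (Igha and Ighv1-33) was at 11.32 and 11.17 in WT, 12.62, 11.43 and 12.68 in Sle1.3, and 11.04, 10.65 and 11.73 in Sle1.3/E2-2het mice. Sle1.3 replicate 2 was close to WT while the other Sle1.3 mice stood more than 1 unit above. The difference from WT was 0.74 (SE 0.30, limma adjusted p = 0.0994). The replicate block, which ties WT mice by number although WT was not taken as paired, gave limma adjusted p = 0.0282.

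**Figure D2:**
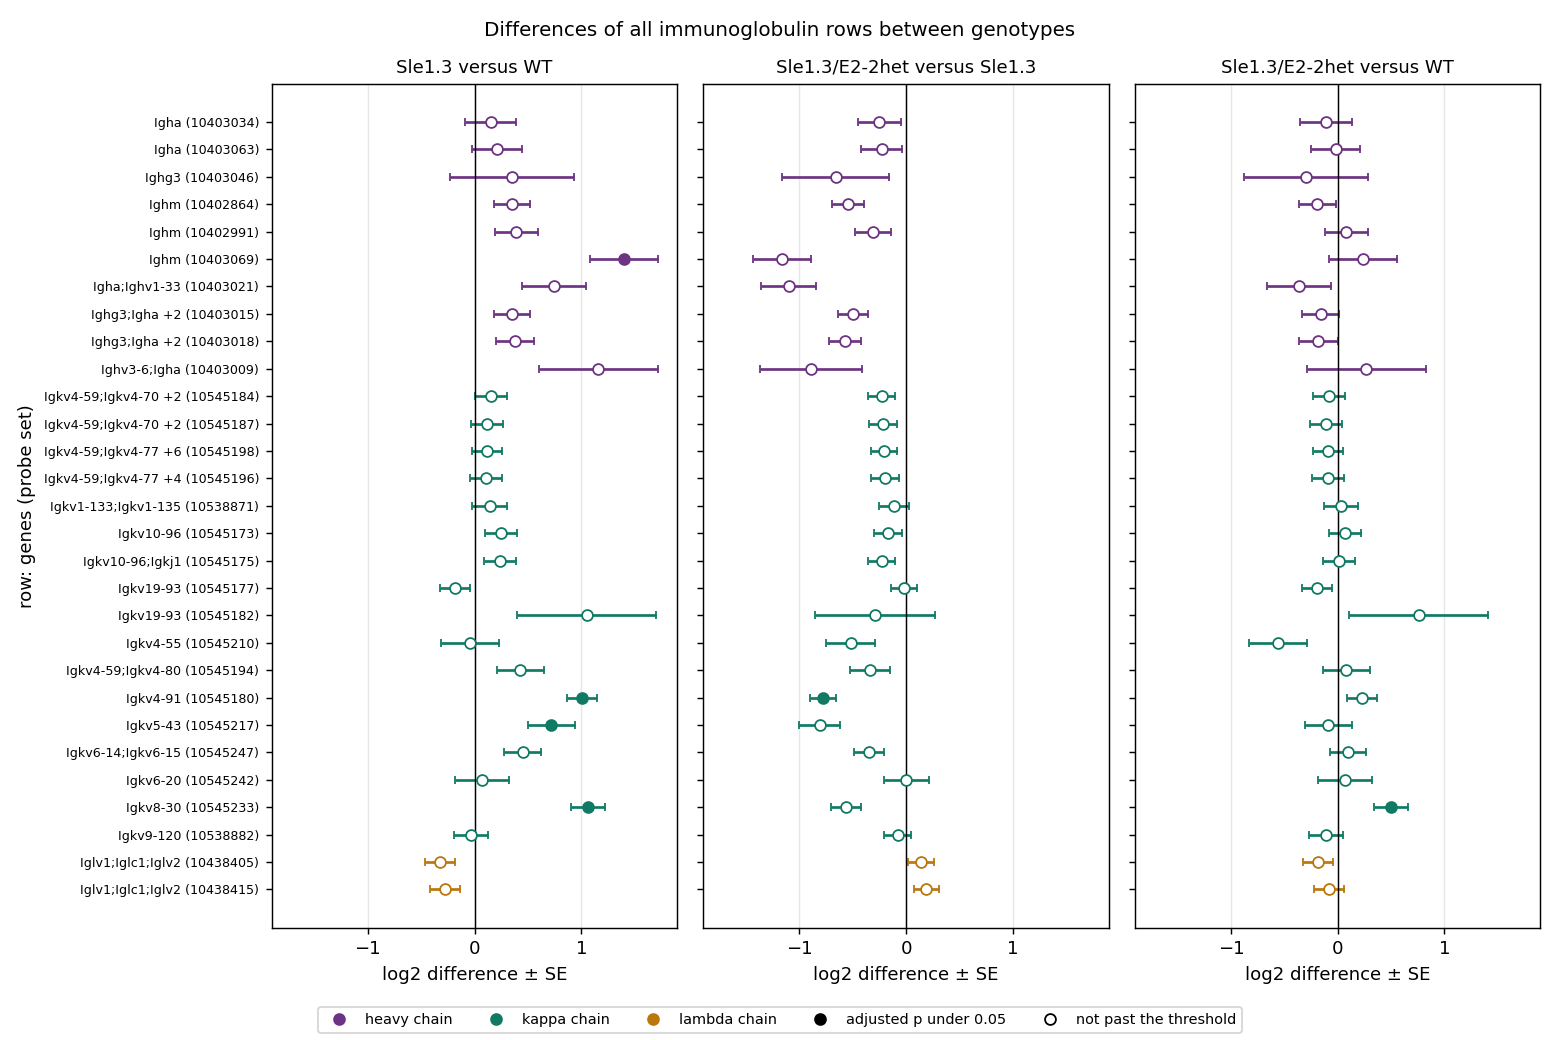
Log2 difference with its standard error (horizontal axes) for each of the 29 rows in the 3 comparisons, coloured by chain, with filled points past an adjusted p of 0.05. In Sle1.3 versus WT all 10 heavy chain rows lie to the right of 0 and both lambda rows to the left, and in Sle1.3/E2-2het versus Sle1.3 all 10 heavy chain rows lie to the left of 0.

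In Sle1.3/E2-2het compared with Sle1.3, the comparison that asks what loss of an E2-2 copy changes on the Sle1.3 background, 1 immunoglobulin row fell and none rose. It was Igkv4-91, with a difference of -0.78 (SE 0.12, limma adjusted p = 0.038). Of all rows tested, 0.228% passed the threshold (0.165% lower and 0.0627% higher). The median over the 29 rows was -0.29, beside 0.01 over all rows tested, and 3 of the 29 differences were above 0. The heavy chain rows had a median of -0.56 with none of 10 above 0, the kappa rows -0.23 with 1 of 17 above 0, and both lambda rows lay above 0 (0.14 and 0.19, neither past the threshold).

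The Igkv4-91 difference had about the same size in every setting, from -0.82 to -0.73, and passed in 8 of 21 alternatives. It did not pass when any array was left out (adjusted p from 0.0597 to 0.186), with genotype alone (adjusted p = 0.284) or with labelled sex (adjusted p = 0.633), and it was -0.73 (adjusted p = 0.071) in the first array set alone. In the second set, with 1 mouse of each genotype and no test, it was -0.89.

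Same-numbered mice of both Sle1.3 genotypes deviated from their group means together, in values that still held the shift between array sets. The fit with the replicate number as a block is therefore given where it changed a call. With the block, Igkv4-91 had an adjusted p of 0.0273 and the row of Igha and Ighv1-33 also passed, at -1.10 (SE 0.26, limma adjusted p = 0.117 without the block and 0.0395 with it). In that row the Sle1.3/E2-2het mice, at 11.04, 10.65 and 11.73, overlapped Sle1.3 replicate 2, at 11.43. With the block 0.444% of all rows passed.

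Of the Ighm rows, 10403069 had the largest difference in this comparison, -1.16 (SE 0.27, limma adjusted p = 0.117, or 0.0866 with the replicate block). All 3 Sle1.3/E2-2het mice lay below all 3 Sle1.3 mice, but the distance was -0.18 in the second array set and -1.65 in the first, where it passed (adjusted p = 0.00238). The other Ighm rows had differences of -0.54 (SE 0.15, adjusted p = 0.162) and -0.31 (SE 0.17, adjusted p = 0.585). In row 10402991 the second-set mice ran the other way, with 10.98 in Sle1.3/E2-2het and 10.73 in Sle1.3.

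The remaining constant rows did not pass either. The difference in Ighg3 was -0.66 (SE 0.50, limma adjusted p = 0.698) and rested on Sle1.3/E2-2het replicate 2, without which it was 0.06. The Igha rows had differences of -0.25 (SE 0.20) and -0.23 (SE 0.19). In both, the first-set Sle1.3/E2-2het mice lay below every Sle1.3 mouse and the second-set mouse above every one.

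Igkv5-43, at 8.13, 7.43 and 8.91 in Sle1.3/E2-2het and 8.41, 8.40 and 10.08 in Sle1.3, had a difference of -0.81 (SE 0.19, limma adjusted p = 0.117). Igkv8-30 had a difference of -0.56 (SE 0.14, adjusted p = 0.135). For both, the Sle1.3/E2-2het mice were the lower ones within each array set. The 4 rows that name Igkc had differences of -0.23 to -0.20, with adjusted p from 0.583 to 0.641.

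The 2 array sets did not show the same pattern over the 29 rows. In the first set the median difference was -0.39, and in 20 rows both Sle1.3/E2-2het mice lay below both Sle1.3 mice, against 25.1% of all rows, while 1 row had both above, against 22.4%. In the second set the median was -0.10, 12 of 29 differences were above 0, and they ran from -1.17 for Igkv5-43 to 0.41 for Igha row 10403063. Over all 6 mice, 2 rows had every Sle1.3/E2-2het mouse below every Sle1.3 mouse (Igkv4-91 and Ighm row 10403069), against 4.18% of all rows, and 0 had every one above, against 3.24%. By Xist the first-set mice differed in sex and the second-set mice did not, and the part of sex in these differences was not tested. At p under 0.05 before adjustment, 10 of the 29 rows were lower and 0 higher, beside 6.62% and 3.74% of all rows.

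**Figure D3:**
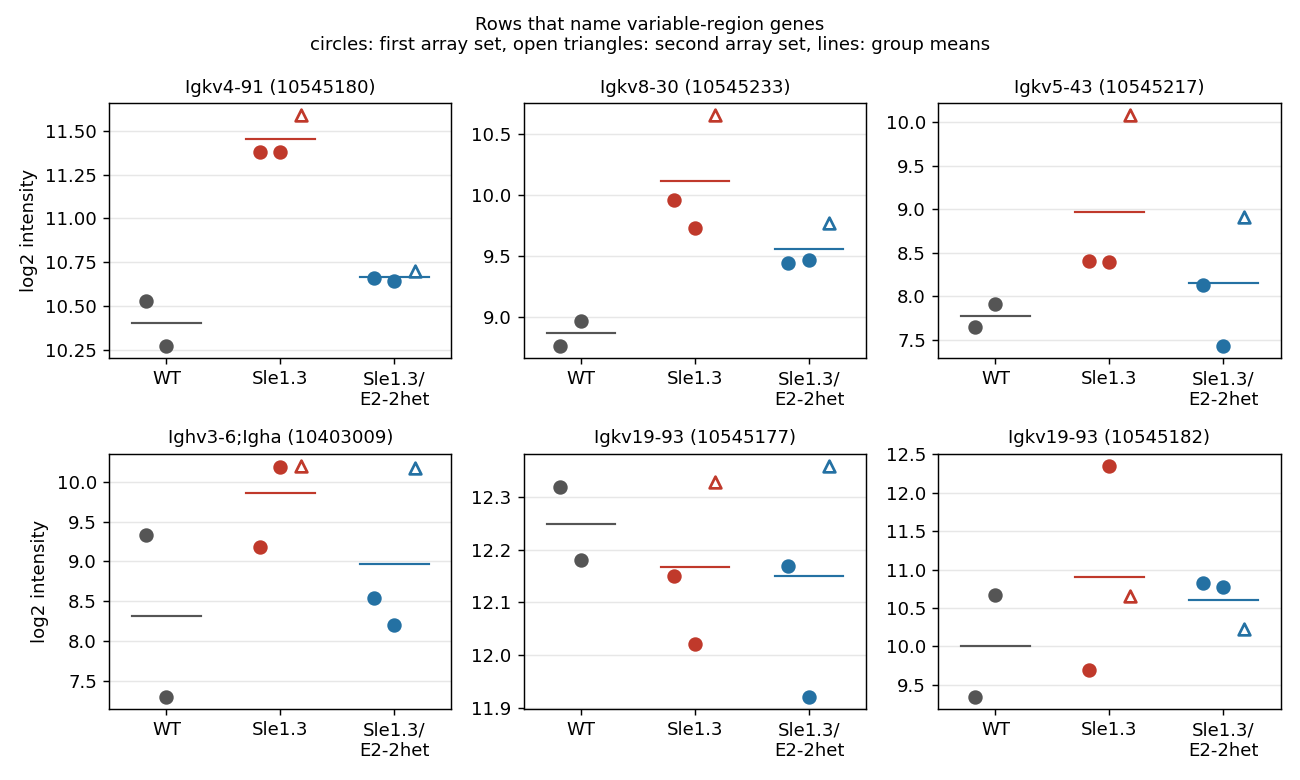
Log2 intensity (vertical axes, each panel on its own scale) of 6 rows that name variable segments, with a point per mouse by genotype; filled circles are the first array set, open triangles the second, and lines the group means. Igkv4-91 sits between 11.38 and 11.59 in Sle1.3 mice and between 10.64 and 10.70 in Sle1.3/E2-2het mice, whereas Igkv19-93 row 10545182 runs from 9.69 to 12.35 within Sle1.3.

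Compared with WT, Sle1.3/E2-2het mice showed a single immunoglobulin row that rose and none that fell. Igkv8-30 was higher by 0.50 (SE 0.16, limma adjusted p = 0.0405), and all 3 Sle1.3/E2-2het mice lay above both WT mice. Of all rows tested, 33.2% passed in this comparison (12.4% higher and 20.8% lower), far above the share of immunoglobulin rows. The median over the 29 rows was -0.08, beside -0.06 over all rows, with 12 of 29 above 0. It passed in 11 of 20 alternatives (limma adjusted p from 0.0156 to 0.151), and not without either WT mouse, Sle1.3 replicate 1, or Sle1.3/E2-2het replicate 1 or 2 (0.40 to 0.61). At p under 0.05 before adjustment, 1 row was higher and 0 lower, beside 17.4% and 28.7% of all rows.

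Igkv4-91, which rose in Sle1.3 against WT, had a difference of 0.23 here (SE 0.14, limma adjusted p = 0.216), and Ighm row 10403069 one of 0.24 (SE 0.32, adjusted p = 0.585). The other Ighm rows had differences of -0.19 and 0.08, and the Igha rows of -0.11 and -0.02. The Ighg3 difference of -0.30 rested on single arrays: it was -1.24 and passed without Sle1.3/E2-2het replicate 1 (limma adjusted p = 0.0157), and was 0.60 without Sle1.3/E2-2het replicate 2. Igkv4-55, at 10.00 and 10.83 in WT and 9.83, 9.60 and 10.78 in Sle1.3/E2-2het mice, had the lowest difference of the 29 rows, -0.56 (SE 0.27, adjusted p = 0.13), and was at -0.70 in the first array set alone (adjusted p = 0.0484). Igkv19-93 row 10545177 followed by p, at -0.19 (SE 0.14, adjusted p = 0.302). Every Sle1.3/E2-2het mouse lay above every WT mouse in 2 rows, against 27.2% of all rows, and in 0 rows below, against 21.9%.

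Immunoglobulin rows differed in how far mice of the same genotype lay apart. The spread left after genotype and array set, the residual SD, had a median of 0.19 log2 units over the 29 rows and 0.16 over all rows tested. Of the 29 rows, 11 lay above 0.28, the 90th percentile of all rows. The largest was that of Igkv19-93 row 10545182, at 1.05, followed by Ighg3 at 0.93, the row of Ighv3-6 and Igha at 0.89, Ighm row 10403069 at 0.49 and the row of Igha and Ighv1-33 at 0.45. The smallest was that of Igkv4-91, at 0.10.

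Igkv19-93 showed the spread within a single gene name. Row 10545182 was at 9.34 and 10.67 in WT, 9.69, 12.35 and 10.66 in Sle1.3, and 10.82, 10.77 and 10.23 in Sle1.3/E2-2het mice. Sle1.3 replicate 2 stood above all other mice, and the difference between Sle1.3 and WT, 1.05, had a standard error of 0.65. Row 10545177, annotated to the same gene, was at 12.32 and 12.18 in WT, 12.15, 12.02 and 12.33 in Sle1.3, and 12.17, 11.92 and 12.36 in Sle1.3/E2-2het mice. There, Sle1.3 replicate 2 was the lowest of its group.

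The row of Ighv3-6 and Igha was at 9.33 and 7.30 in WT, 9.18, 10.19 and 10.20 in Sle1.3, and 8.54, 8.20 and 10.17 in Sle1.3/E2-2het mice. The 2 WT mice were farther apart than the group means. Its difference between Sle1.3 and WT was 1.16 (SE 0.56, limma adjusted p = 0.157), the second largest among the 29 rows and not past the threshold.

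**Figure D4:**
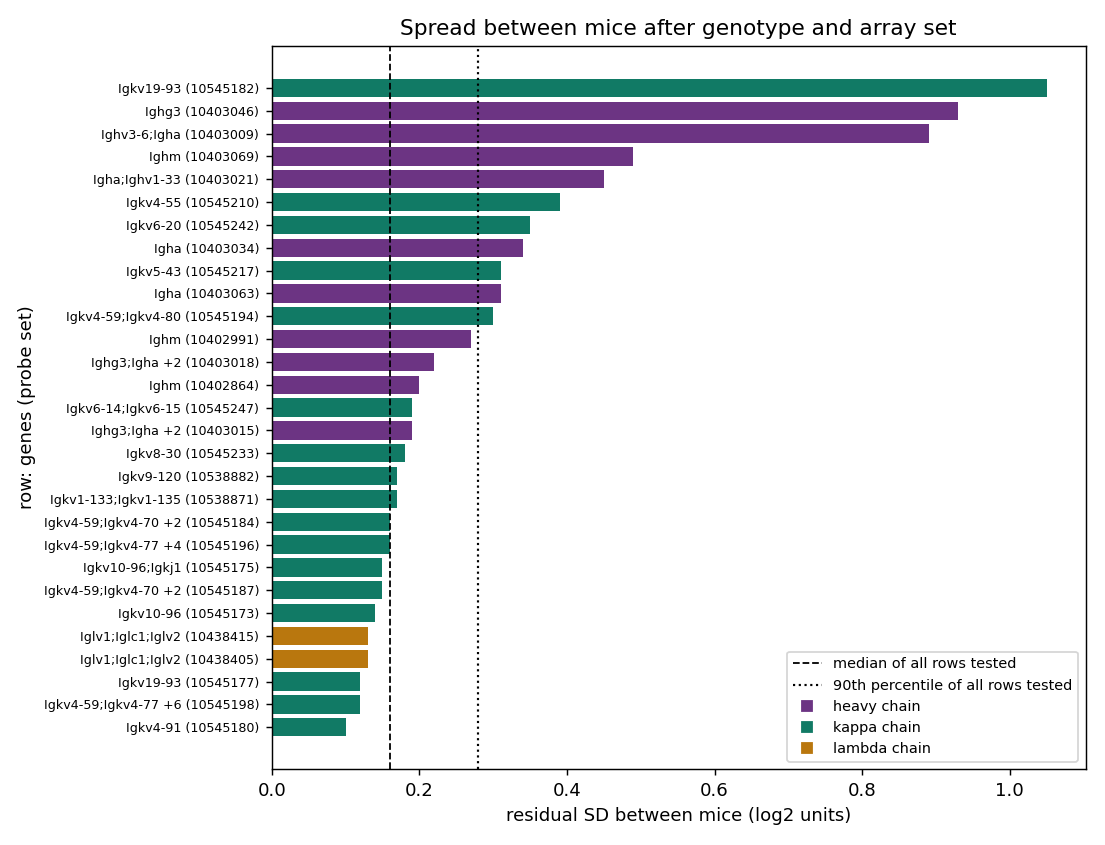
Residual SD between mice (horizontal axis, log2 units) of each of the 29 rows after genotype and array set, coloured by chain; the dashed line is the median of all rows tested (0.16) and the dotted line their 90th percentile (0.28). Igkv19-93 row 10545182, Ighg3 and the row of Ighv3-6 and Igha have bars of 0.89 to 1.05, and Igkv4-91 has the shortest bar, at 0.10.

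Genes that assemble, secrete or sense antibody were read beside the chains. Of 14 measured partners and receptors, 1 rose and 3 fell in Sle1.3 against WT, beside 9.76% and 14.7% of all rows. From Sle1.3 to Sle1.3/E2-2het 1 fell, beside 0.165% of all rows. In Sle1.3/E2-2het against WT 2 rose and 3 fell, beside 12.4% and 20.8%. Fcgr4, an activating IgG receptor of myeloid cells, was higher by 2.62 in Sle1.3 than in WT (limma adjusted p = 0.000662) and lower by -2.33 in Sle1.3/E2-2het than in Sle1.3 (adjusted p = 0.0138). Fcer2a, the low-affinity IgE receptor CD23, fell by 1.08 in Sle1.3 (adjusted p = 0.00501), and Fcmr, the IgM receptor, fell by 0.82 (adjusted p = 0.015). With genotype alone Fcer2a passed (limma adjusted p = 0.0203) and Fcmr did not (adjusted p = 0.104).

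Jchain, which links the units of polymeric IgM and IgA, was at 11.51 and 11.83 in WT, 12.14, 11.90 and 12.33 in Sle1.3, and 12.21, 12.20 and 12.28 in Sle1.3/E2-2het mice. Both Sle1.3 genotypes lay above WT. The difference was 0.39 in Sle1.3 (limma adjusted p = 0.0953) and 0.49 in Sle1.3/E2-2het (adjusted p = 0.0344), and between the Sle1.3 genotypes it was 0.11. With genotype alone the Sle1.3/E2-2het difference from WT did not pass (limma adjusted p = 0.0833).

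The plasma cell list had a median on each array of 8.44 and 8.74 in WT, 9.16, 9.13 and 9.18 in Sle1.3, and 8.26, 8.28 and 8.90 in Sle1.3/E2-2het mice. The heavy chain rows had medians of 11.05 and 10.82 in WT, 11.60, 11.50 and 11.70 in Sle1.3, and 10.75, 10.48 and 11.48 in Sle1.3/E2-2het mice. Both medians were highest in Sle1.3 mice, and in Sle1.3/E2-2het mice both were higher in the second-set mouse than in the others. The kappa rows, with medians of 11.92 to 12.43 on all arrays, did not separate the genotypes. The part of plasma cell RNA in the immunoglobulin differences was not tested.

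Of 20 plasma cell genes, all measured, 2 rose and 1 fell in Sle1.3 against WT, beside 9.76% and 14.7% of all rows. Their median difference was 0.25. In the first array set alone 4 rose and 1 fell, beside 7.77% and 10.5% of all rows. With the replicate block, which ties WT mice by number although WT was not taken as paired, 5 rose and 1 fell. The shares of all rows there were 11.4% and 18.2%. Mzb1, a chaperone of antibody secretion, was at 9.0 and 8.99 in WT, 10.15, 9.96 and 9.98 in Sle1.3, and 8.93, 8.93 and 9.55 in Sle1.3/E2-2het mice. It rose by 0.94 in Sle1.3 against WT (SE 0.18, limma adjusted p = 0.00539). Eaf2, an elongation factor of B lineage cells, rose by 0.53 (adjusted p = 0.0404), and Ell2, an elongation factor that directs Ighm RNA processing towards the secreted form, fell by 0.87 (adjusted p = 0.00976). With genotype alone Mzb1 and Ell2 passed and Eaf2 did not (limma adjusted p = 0.0963).

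From Sle1.3 to Sle1.3/E2-2het none of the 20 plasma cell genes passed in the limma fit. At p under 0.05 before adjustment 12 were lower and 1 higher, beside 6.62% and 3.74% of all rows. In the first array set alone 4 fell and 0 rose, beside 0.387% and 0.581% of all rows. In the fit to all arrays their median difference was -0.52, beside 0.01 over all rows. Mzb1 had a difference of -0.90 (SE 0.15, limma adjusted p = 0.0601) and passed with the replicate block (adjusted p = 0.0436). Xbp1, the transcription factor of the secretory programme, was at 10.08 and 10.13 in WT, 10.52, 10.32 and 10.92 in Sle1.3, and 9.74, 9.20 and 10.44 in Sle1.3/E2-2het mice. In each array set the Sle1.3/E2-2het mice lay below the Sle1.3 mice, and the difference was -0.79 (SE 0.16, adjusted p = 0.107). In Sle1.3/E2-2het against WT, 1 plasma cell gene rose (Jchain) and 2 fell, beside 12.4% and 20.8% of all rows. Among those that fell was Ell2 (-0.77, limma adjusted p = 0.0134).

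The list of general B cell genes had array medians of 9.84 to 10.28. In Sle1.3 against WT, 4 of its 15 measured genes fell and none rose, beside 14.7% of all rows lower. Of those 4, Cd79a and Fcer2a are also counted among the partners and receptors, and Ebf1 among the locus regulators below. Cd79a, the signalling partner of surface immunoglobulin, was at 12.34 and 11.80 in WT, 11.49, 11.37 and 11.71 in Sle1.3, and 11.44, 11.20 and 12.02 in Sle1.3/E2-2het mice. It was lower in all 3 Sle1.3 mice than in both WT mice (-0.71, limma adjusted p = 0.0242). With genotype alone this difference did not pass (limma adjusted p = 0.227). In Sle1.3/E2-2het, 7 of the 15 fell against WT, beside 20.8% of all rows. With genotype alone, where 4.54% of all rows were lower, Ebf1 still passed (limma adjusted p = 0.0377). Cd79a, Cd22, Fcer2a, Blk, Pax5 and Cd74 did not (adjusted p from 0.0629 to 0.316). Against Sle1.3 the median difference of the list was -0.12 and none of the 15 passed in the limma fit. At p under 0.05 before adjustment 4 were lower and 0 higher, beside 6.62% and 3.74% of all rows.

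**Figure D5:**
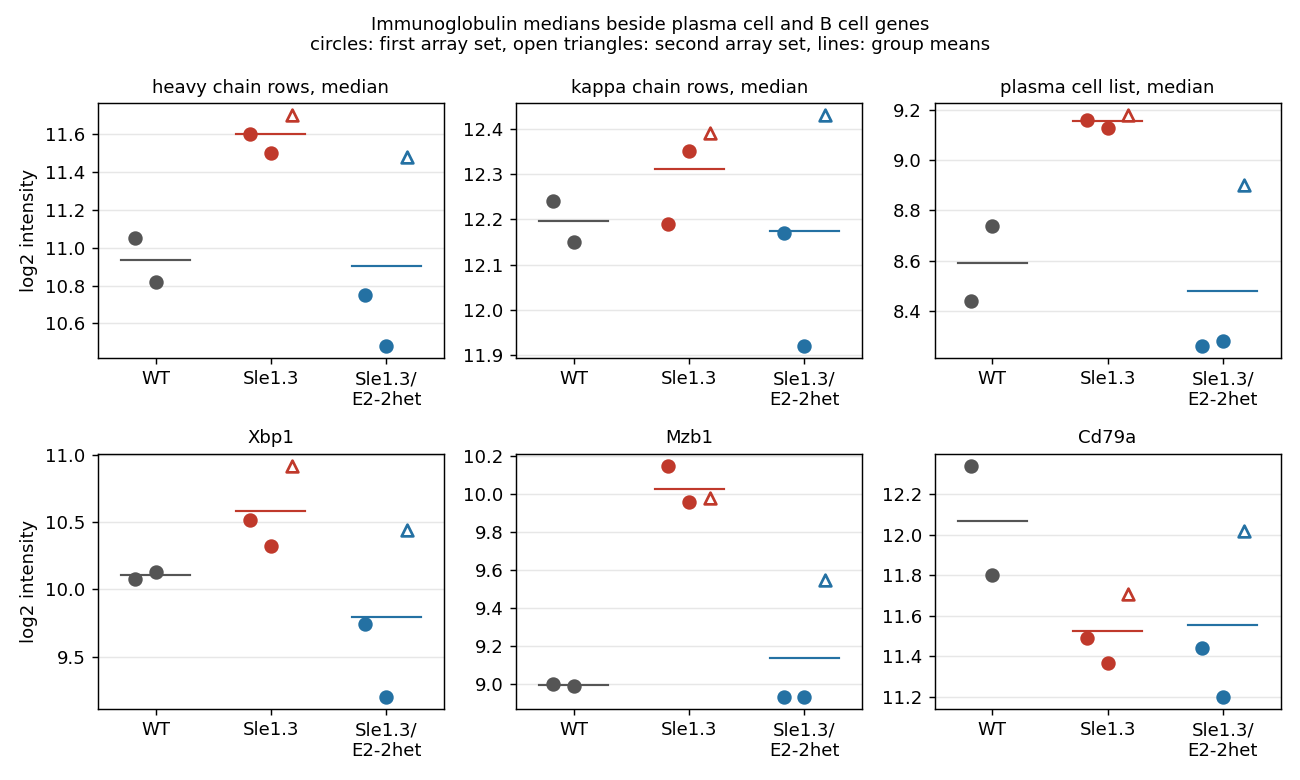
Log2 intensity (vertical axes, each panel on its own scale) per mouse of the medians of the heavy chain rows, the kappa rows and the plasma cell list, and of Xbp1, Mzb1 and Cd79a; filled circles are the first array set, open triangles the second, and lines the group means. The heavy chain median is 11.50 to 11.70 in Sle1.3 and 10.82 to 11.05 in WT, Mzb1 is highest in the 3 Sle1.3 mice, and Cd79a is higher in both WT mice than in any Sle1.3 mouse.

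Of 16 measured genes listed as regulators of immunoglobulin loci, 6 fell in Sle1.3 and 10 in Sle1.3/E2-2het against WT. The shares of all rows lower were 14.7% and 20.8%. With genotype alone, Spib, Ebf1, Ell2 and Id3 still passed in Sle1.3/E2-2het against WT, beside 4.54% of all rows lower. Pou2af1, Pou2f2, Tcf3, Tcf4, Tcf12 and Pax5 did not (limma adjusted p from 0.126 to 0.407). The list also holds the elongation factor Ell2 and the E protein inhibitors Id2 and Id3, of which Ell2 and Id3 fell in both comparisons. None of the 16 rose, and none passed between the Sle1.3 genotypes in the limma fit. Before adjustment, at p under 0.05, 4 were lower and 0 higher there, beside 6.62% and 3.74% of all rows. Spib, an Ets factor of B cells and plasmacytoid dendritic cells, fell by 1.63 in Sle1.3 (limma adjusted p = 0.000514) and by 1.81 in Sle1.3/E2-2het (adjusted p = 0.000219). Id3, an inhibitor of E proteins such as E2-2, fell by 1.16 and 1.04 (adjusted p = 0.000865 and 0.00126).

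Of 14 measured genes of recombination, class switching and hypermutation, 2 fell in Sle1.3 and 5 in Sle1.3/E2-2het against WT, beside 14.7% and 20.8% of all rows. None passed between the Sle1.3 genotypes in the limma fit. Before adjustment, at p under 0.05, 2 were lower and 0 higher there, beside 6.62% and 3.74% of all rows. Trp53bp1, which protects the broken ends during class switching, fell by 0.62 in Sle1.3 (limma adjusted p = 0.014), and Msh6, a mismatch repair protein, fell by 0.55 (adjusted p = 0.0181). With genotype alone neither passed (limma adjusted p = 0.366 and 0.0591). In Sle1.3/E2-2het against WT, Msh6 passed with genotype alone (adjusted p = 0.0144). Trp53bp1, Rif1, Lig4 and Hmces did not (adjusted p from 0.0672 to 0.203).

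Germinal centre genes, of the site where B cells mutate and switch their antibody genes, moved both ways. Of 10 measured, 3 rose and 2 fell in Sle1.3 against WT, beside 9.76% and 14.7% of all rows. From Sle1.3 to Sle1.3/E2-2het 2 fell, beside 0.165% of all rows. In Sle1.3/E2-2het against WT 7 fell, beside 20.8%. With genotype alone Gna13, Il21r and Neil1 still passed there, and Bcl6, Mybl1, Rgs13 and Fas did not (limma adjusted p from 0.0516 to 0.223). Gcsam, a germinal centre signalling adaptor, was higher by 1.65 in Sle1.3 (limma adjusted p = 0.000959) and lower by -1.65 in Sle1.3/E2-2het than in Sle1.3 (adjusted p = 0.0138). Mybl1, a Myb family factor of the germinal centre, was higher by 1.09 (adjusted p = 0.0106) and lower by -2.02 (adjusted p = 0.0117).

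Markers of other spleen cells were counted in the same way. In Sle1.3 against WT, all 10 neutrophil genes rose (median 3.24), as did 4 of 10 macrophage and 1 of 7 erythroid genes, beside 9.76% of all rows. In the same comparison 1 of 9 T cell, 2 of 6 natural killer cell and 3 of 10 plasmacytoid dendritic cell genes fell, beside 14.7% of all rows. In Sle1.3/E2-2het against WT, 9 neutrophil, 9 macrophage, 5 erythroid and 1 natural killer cell genes rose, beside 12.4% of all rows. There 4 T cell, 4 plasmacytoid dendritic cell and 1 natural killer cell genes fell, beside 20.8%. Between the Sle1.3 genotypes, 1 gene of these 6 lists passed, Slc40a1 of macrophages (1.22, limma adjusted p = 0.0325). With the replicate block the erythroid genes Alas2 (2.34, limma adjusted p = 0.0253) and Slc4a1 (2.25, adjusted p = 0.0246) were also higher in Sle1.3/E2-2het and passed. So did the natural killer cell gene Klrb1c (0.84, adjusted p = 0.0305), beside 0.154% of all rows higher with the block. In the first array set 3 erythroid genes rose, beside 0.581% of all rows. At p under 0.05 before adjustment, 5 of 7 erythroid and 4 of 6 natural killer cell genes were higher and 0 of either list lower. Of 10 macrophage genes 4 were higher and 0 lower, and of 9 T cell genes 2 were higher and 3 lower. The neutrophil and plasmacytoid dendritic cell lists each had 2 genes lower and 0 higher. Of all rows 3.74% were higher and 6.62% lower. Each value is an average over all cells of the sample, and the part of these cell types in the immunoglobulin differences was not tested.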

How the data were processed

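Splenocyte RNA of 8 mice was measured on 1 array each. The authors deposited a table of linear intensity values. Expression Console (Affymetrix) and RMA are the tools named, per the submitters' processing notes; their versions and roles are not given in the sources used here. From the deposited intensities log2 was taken here. Rows with a gene symbol and a mean log2 above the 25th percentile (17557 of 23410) were fitted with lmFit and eBayes of limma 3.58.1 (R 4.3.3; two-sided tests, 4 residual degrees of freedom), with genotype and array set as terms and Benjamini-Hochberg adjustment. The second array set is every array whose lowest linear intensity is above 8. The script was tested on simulated data. The number of arrays limits the precision.

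Of the immunoglobulin rows, 2 that also name Map3k20 were left out by the rule; in Sle1.3 against WT they had differences of 0.43 and 0.16 (limma adjusted p = 0.0537 and 0.36). RefSeq (GRCm38.p6) gave names and chromosomes only. Near-identical segments may share probes. The members and the gene lists were chosen with earlier results of these data known.

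All constant-only rows are named. Of the rows with variable or joining genes, the rule named up to 6 past the threshold in each direction per comparison (otherwise up to 4 with the smallest p), the 3 with the highest mean of each chain and the 5 with the largest residual SD. From each gene list it took up to 3 members past the threshold, or the 1 with the smallest p. The lists overlap, and genes such as Cd79a, Fcer2a, Ebf1, Ell2, Jchain, Xbp1, Spib and Tcf4 are counted in each list that holds them. Jchain in Sle1.3 against WT and between the Sle1.3 genotypes was chosen after its values were seen.

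Same-numbered Sle1.3 and Sle1.3/E2-2het arrays had correlations of their deviations, across genes, of 0.516, 0.365 and 0.502; same-numbered WT arrays had -0.0558 and 0.225 with Sle1.3 and 0.228 and 0.11 with Sle1.3/E2-2het. Pairing was taken only where every same-numbered pair exceeded 0.1. WT passed that bound with Sle1.3/E2-2het but not with Sle1.3, so only the 2 Sle1.3 groups were taken as paired. Deviations were taken from genotype means without the array set, so the correlations between the Sle1.3 groups also hold the shift between sets. The labels state no pairing.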

Additional observations from a re-analysis of the deposited data

How the results depend on the processing

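The number of rows that passed depended on the terms of the limma fit. In Sle1.3 against WT it was 4, and leaving out each array gave 2 to 5. The replicate block kept the 4 rows and 6 passed, 20.7% of the 29 beside 29.6% of all rows. That block ties WT mice by number, although WT was not taken as paired. Labelled sex kept 2 of the 4 and 2 passed, 6.9% beside 4.06% of all rows. From Sle1.3 to Sle1.3/E2-2het the number that passed was 1. It was 0 with genotype alone, labelled sex, quantile normalization or all probe sets, and 2 with the replicate block, also on the 6 arrays of these genotypes (a setting chosen after seeing the data). Without single arrays it was 0 to 1. In the first array set the 1 row that passed was a different one, Ighm row 10403069. In Sle1.3/E2-2het against WT it was 1; it was 0 with genotype alone, labelled sex, median centring or all probe sets, 2 in the first array set, and 0 to 2 without single arrays. Without WT replicate 1, or without Sle1.3/E2-2het replicate 1, the 1 row that passed was lower. Where the count from Sle1.3 to Sle1.3/E2-2het was 0, rows lower at p under 0.05 before adjustment numbered 5 with genotype alone and 4 with labelled sex. These are 17.2% and 13.8% of the 29 rows, beside 2.56% and 1.4% of all rows. Between the Sle1.3 genotypes the replicate block added the row of Igha and Ighv1-33 and changed no other call of an immunoglobulin row.

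Signs were followed in the constant-only rows and in the rows past the threshold or with the smallest p. Among these, reversed signs were all in differences from WT or in Ighg3, and no value of reversed sign passed. In Sle1.3/E2-2het against WT, Igha row 10403034 was at 0.19 with genotype alone, 0.05 with labelled sex and -0.41 to 0.20 without single arrays. Igha row 10403063 was at 0.29, 0.13 and -0.21 to 0.16 in these settings. Ighm row 10403069 was at -0.05 with labelled sex, -0.01 in the first array set and -0.01 to 0.51 without single arrays. Ighm row 10402991 was at -0.06 in the first array set, -0.00 with median centring and -0.06 to 0.25 without single arrays. Ighg3 ran from -1.24 (passing without Sle1.3/E2-2het replicate 1, limma adjusted p = 0.0157) to 0.60 without single arrays, and from -1.41 to 0.06 between the Sle1.3 genotypes. In Sle1.3 against WT, Igha row 10403034 ran from -0.16 to 0.45. The cause was not tested.

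The median of the 29 rows kept its sign in Sle1.3 against WT (0.20 to 0.44) and from Sle1.3 to Sle1.3/E2-2het (-0.52 to -0.18) in the alternatives run. In Sle1.3/E2-2het against WT the median ran from -0.19 to 0.11 and kept its sign in 16 of 20 alternatives. Over all rows, 4290, 40 and 5828 passed in the 3 comparisons. The counts were 1529, 0 and 1872 with genotype alone and 712, 0 and 1185 with labelled sex. From Sle1.3 to Sle1.3/E2-2het they were also 78 with the block, 170 in the first set, 25 with an offset of 16, 0 over all probe sets and 92 over single-symbol rows. Leaving out the second-set array of either genotype equals the first array set alone by construction. With 8 arrays and no background level, low-intensity limits could not be set.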
